A study of Mus musculus with 7 samples.

Results

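A set of 10 genes that prepare and load peptides for the major histocompatibility complex (MHC) were examined in the prostates of Nkx3.1−/− mice that had received N-acetylcysteine (NAC), a thiol antioxidant from which cells can make glutathione, or plain water. They were Tap1, Tap2, Tapbp, B2m, Nlrc5, Cd74, Ciita, Psmb8, Psmb9 and Psmb10, taken by name from 18938 measured genes, and all 10 were present with 1 probe set each. They had been selected on the log2 values of these arrays, with the NAC against vehicle differences known, so those differences are given as a description with no test of the 10 genes. Both groups were homozygous for the Nkx3.1 null allele on a recombinant inbred B6/129 background and were 16 weeks old. The NAC group (4 mice, replicates 1 to 4) drank 5 mM NAC for 13 weeks from weaning, and the vehicle group (3 mice, replicates 1, 2 and 4) drank plain water over the same time. RNA of each mouse was hybridized to 1 Affymetrix Mouse Gene 1.0 ST array, and the probes of a gene's transcript together gave 1 log2 value (a probe set). Littermates were split between NAC cages and vehicle cages, so cage and treatment cannot be told apart. No Nkx3.1 wild-type array was analysed here, and neither was the Nkx3.1 transcript itself. The RNA came from whole pieces of anterior prostate by the extraction protocol, while a tissue label reads whole prostate, so epithelium, stroma and resident immune cells were measured together.

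MHC class I molecules show peptides from inside the cell to CD8 T cells. The proteasome cuts the peptides, the TAP transporter carries them into the endoplasmic reticulum, and tapasin holds the empty class I molecule beside TAP until a peptide binds. Interferon induces the subunits encoded by Psmb8, Psmb9 and Psmb10, which take the place of the catalytic subunits of the constitutive proteasome. Class II molecules show peptides from endosomes to CD4 T cells, and are made mainly by dendritic cells, macrophages and B cells.

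The arrays were closely alike, with medians from 7.12 to 7.16 and correlations between pairs of arrays, across genes that are not independent replicates, from 0.995 to 0.998. The prostate secretory genes Pbsn (12.65 to 12.95 with NAC, 12.63 to 12.75 with vehicle) and Tgm4 (13.96 to 13.99 with NAC, 13.99 to 14.02 with vehicle) were strongly expressed on every array. NAC replicate 3 stood apart in markers of other organs. All 6 lung genes, all 6 adipocyte genes and all 7 skeletal muscle genes measured were highest on that array, with the surfactant gene Sftpc at 10.51 there, against 5.13 to 5.26 on the other NAC arrays and 5.15 to 5.25 with vehicle. At least 3 arrays held an identical value in 7568 of the 18938 genes, and small differences of such genes rest on few distinct values.

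Compared by limma over all genes, NAC and vehicle differed at an adjusted p under 0.05 in 0 of 18938 genes (0%), and the smallest adjusted p was 0.827. At an unadjusted p under 0.05, 357 genes (1.89%) were higher and 479 (2.53%) lower with NAC, where 946.9 in all would be reached by chance. None of the 10 genes therefore passed. Their mean was lower with NAC in 8 cases and higher in 2, with a median log2 difference (NAC minus vehicle) of -0.10, while 50.5% of all genes had a lower mean and the median over all genes was 0.00. The middle 50% of all genes lay between -0.05 and 0.05. Tapbp and Nlrc5 were the 2 genes whose NAC arrays all lay below all vehicle arrays, as did those of 412 of all genes (2.18%), and 0 of the 10 had all NAC arrays above all vehicle arrays, against 245 of all genes (1.29%). Nothing is read from these shares, because the genes were picked with this contrast in view. In RNA of whole tissue, fewer cells of a type and less RNA per cell cannot be told apart.

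**Figure D1:**
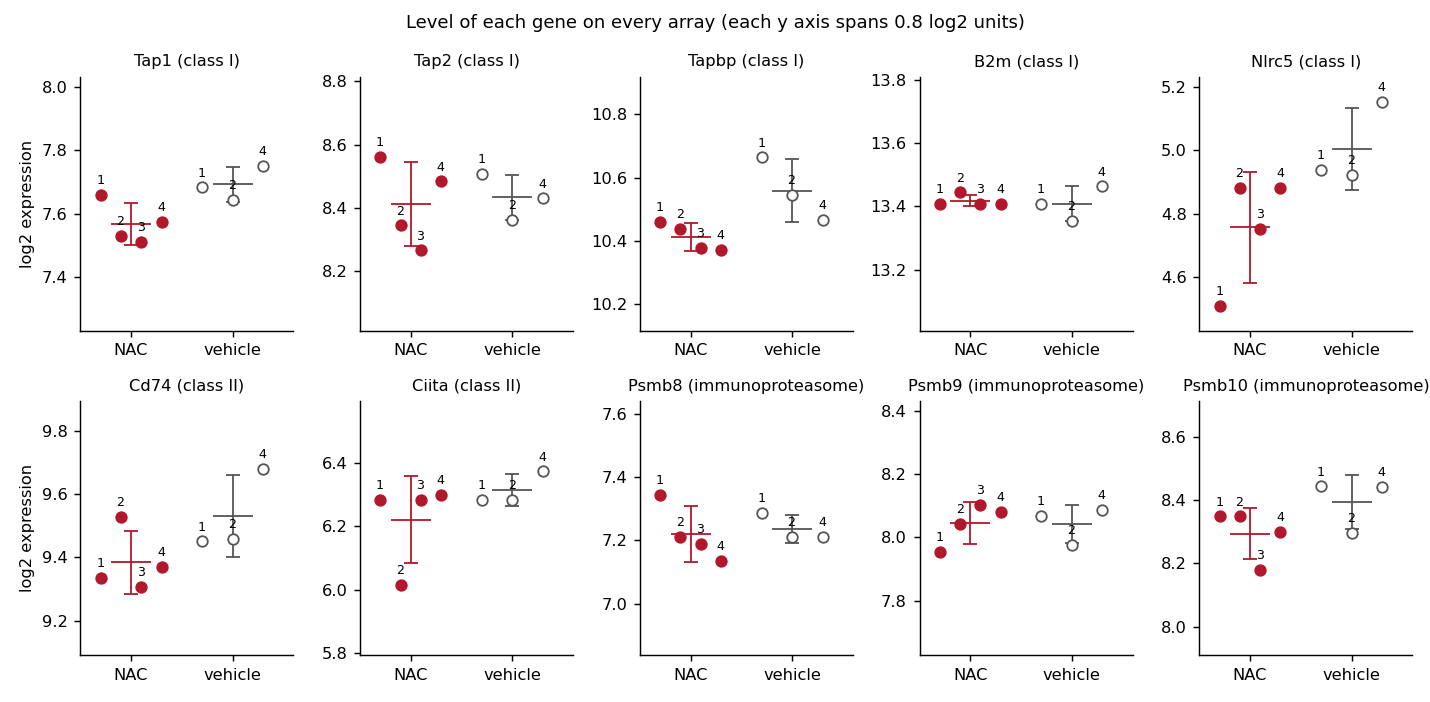
Log2 expression (y axis) of the 10 genes on the 4 NAC arrays (red, filled) and the 3 vehicle arrays (grey, open), with the replicate number above each point and bars for the mean and SD. Tapbp and Nlrc5 are the genes without overlap between the groups, while B2m, Psmb8 and Psmb9 have nearly equal means.

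TAP is a dimer of the products of Tap1 and Tap2. Tap1 was at 7.66, 7.53, 7.51 and 7.57 on NAC replicates 1 to 4, and at 7.68, 7.64 and 7.75 on vehicle replicates 1, 2 and 4. Of the 4 NAC arrays, 3 were below every vehicle array, and NAC replicate 1 lay between vehicle replicates 2 and 1. The means were 7.57 ± 0.07 with NAC (SD, n = 4) and 7.69 ± 0.06 with vehicle (SD, n = 3), a log2 difference of -0.13 (standard error 0.05, 95% interval -0.24 to -0.01), or 0.917-fold. Its partner differed much less. Tap2 was at 8.56, 8.35, 8.27 and 8.48 with NAC, and at 8.51, 8.36 and 8.43 with vehicle, a log2 difference of -0.02 (standard error 0.08). NAC replicate 1 was the highest of the 7 arrays for Tap2 and NAC replicate 3 the lowest, so the vehicle arrays lay within the range of the NAC arrays. The 95% interval of the Tap2 difference, from -0.20 to 0.17, still holds the whole size seen for Tap1. The sign of the Tap2 difference turned without NAC replicate 2 (0.00), NAC replicate 3 (0.03) or vehicle replicate 1 (0.02).

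Tap1 and Tap2 lie on chromosome 17 in the class II part of the MHC beside the immunoproteasome genes, in the order Psmb9, Tap1, Psmb8 and Tap2, which together span 34292 bases (chr17:34182030-34216321, GRCm38.p6). Psmb9 is read from the minus strand and Tap1 from the plus strand, so that both start from 1 stretch of 225 bases between them. It is shown because a gene of the transporter and a gene of the immunoproteasome share it. The sequence, from RefSeq for GRCm38.p6, is on the plus strand (chr17:34187331-34187555), from the start of Psmb9 on the left to that of Tap1 on the right, with a CCAAT match and a match to GGGCGG on the other strand in capitals.
Psmb9-Tap1: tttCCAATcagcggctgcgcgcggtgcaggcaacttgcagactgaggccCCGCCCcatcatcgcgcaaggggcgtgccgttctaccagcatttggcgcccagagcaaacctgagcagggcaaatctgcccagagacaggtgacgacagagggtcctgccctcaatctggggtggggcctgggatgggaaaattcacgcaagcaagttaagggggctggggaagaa
Psmb9, on the left side of this stretch, encodes a catalytic subunit of the immunoproteasome that takes the place of the Psmb6 product. It was at 7.95, 8.04, 8.10 and 8.08 on NAC replicates 1 to 4, and at 8.07, 7.97 and 8.08 on vehicle replicates 1, 2 and 4, and the groups overlapped throughout. Its log2 difference was 0.00 (standard error 0.05, 95% interval -0.11 to 0.12), against -0.13 for Tap1, but the intervals overlap and the 2 differences were not tested against each other. NAC replicate 3, the lowest array for Tap1, was the highest for Psmb9. Psmb8, the next gene, replaces the Psmb5 product. Its level was 7.34, 7.21, 7.19 and 7.13 with NAC and 7.29, 7.21 and 7.21 with vehicle, a log2 difference of -0.02 (standard error 0.05, 95% interval -0.15 to 0.11). NAC arrays were both the highest and the lowest for Psmb8, and its sign turned without NAC replicate 4 or vehicle replicate 1 (0.01 each). The sign for Psmb9 turned without NAC replicate 3 (-0.02), NAC replicate 4 (-0.01) or vehicle replicate 2 (-0.03).

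**Figure D2:**
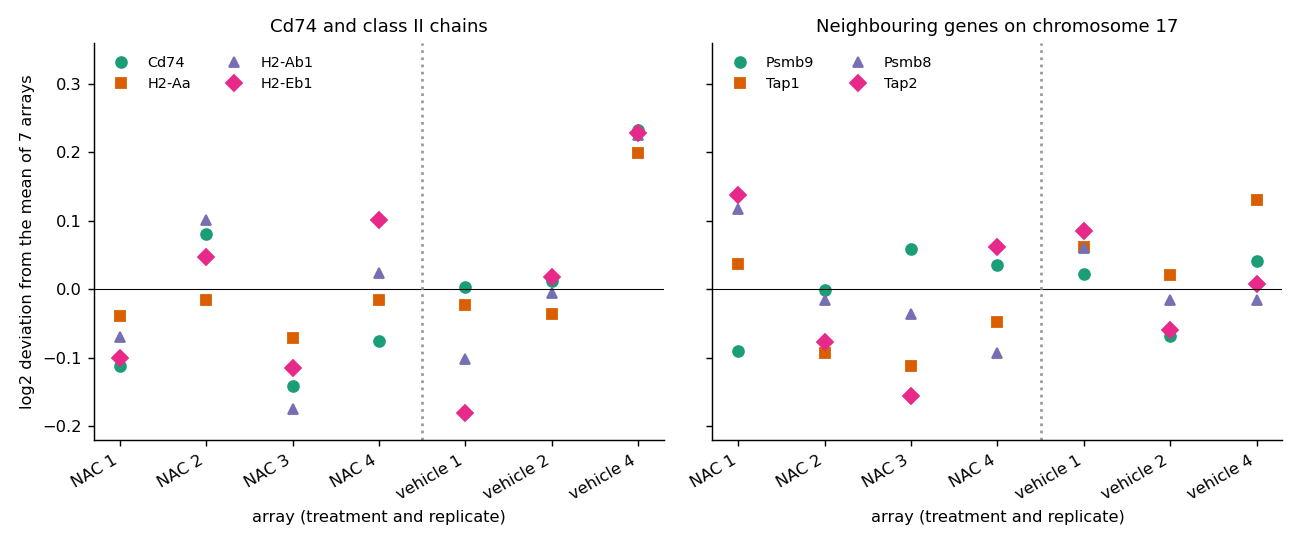
Deviation of each gene's log2 value from its own mean (y axis) on each of the 7 arrays (x axis, NAC left of the dotted line and vehicle right of it) for Cd74 with 3 class II chains and for 4 neighbouring genes of chromosome 17. All 4 genes of the left panel are highest on vehicle replicate 4, while the 4 neighbours of the right panel have no common order of arrays.

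Tapasin, the product of Tapbp, links class I molecules to TAP and edits their peptides. Tapbp (chr17:33919478-33929290) was at 10.46, 10.44, 10.38 and 10.37 on NAC replicates 1 to 4, and at 10.66, 10.55 and 10.47 on vehicle replicates 1, 2 and 4. All NAC arrays were below all vehicle arrays, but NAC replicate 1 and vehicle replicate 4 were almost equal, and Tapbp thus lies just inside the group of genes without overlap. The means were 10.41 ± 0.04 with NAC (SD, n = 4) and 10.56 ± 0.10 with vehicle (SD, n = 3), a log2 difference of -0.15 (standard error 0.05, 95% interval -0.27 to -0.02), or 0.903-fold. Without vehicle replicate 1, the highest array, it was -0.095. Beta-2-microglobulin, encoded by B2m (chr2:122147687-122153082), is the light chain of every class I molecule. It was at 13.41, 13.44, 13.41 and 13.41 with NAC, and at 13.41, 13.35 and 13.46 with vehicle, with vehicle arrays at both ends. The log2 difference of B2m was 0.01 (standard error 0.03, 95% interval -0.07 to 0.09), the narrowest interval of the 10 genes, and was -0.02 without vehicle replicate 2.

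The 250 bases before the starts of Tapbp and B2m are shown because tapasin and the light chain act on the same class I molecule. Capitals mark matches on either strand to CCAAT, to GGGCGG and to the core of the interferon-stimulated response element (GAAA, any 2 bases, GAAA) (RefSeq, GRCm38.p6, plus strand; chr17:33919228-33919477 and chr2:122147437-122147686).
Tapbp: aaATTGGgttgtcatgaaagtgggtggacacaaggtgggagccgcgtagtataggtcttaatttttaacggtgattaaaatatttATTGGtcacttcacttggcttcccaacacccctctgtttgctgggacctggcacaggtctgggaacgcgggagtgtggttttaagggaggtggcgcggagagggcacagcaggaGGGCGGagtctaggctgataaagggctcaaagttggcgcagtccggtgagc
B2m: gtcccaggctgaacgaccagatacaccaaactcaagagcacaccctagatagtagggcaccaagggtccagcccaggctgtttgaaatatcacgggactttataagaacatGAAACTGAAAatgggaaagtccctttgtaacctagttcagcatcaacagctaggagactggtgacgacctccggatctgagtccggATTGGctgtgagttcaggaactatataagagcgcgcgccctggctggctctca
Of the 10 genes, 6 had a promoter entry (Tap1, Tapbp, B2m, Psmb8, Psmb9 and Psmb10). The interferon-stimulated core was found in 1 of the 6, at 139 to 130 bases before the start of B2m, and in 2.98% of the 32851 promoters of all genes over the same length. The gamma-activated sequence TTCNNNGAA was found in 1 of the 6, at 97 to 89 bases before the start of Psmb8, and in 7.02% of all. CCAAT was found in 4 of the 6 and in 33.8% of all, and GGGCGG in 3 of the 6 and in 32.7% of all. The Tap1 and Psmb9 windows share the stretch printed above, so their matches are not separate. These matches are letters in a window and do not show a bound site.

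Nlrc5 encodes the transactivator of class I genes, which drives heavy chains, B2m, Tap1 and Psmb9 and is itself induced by interferon. It had the widest spread and the largest difference of the 10 genes. Nlrc5 (chr8:94434335-94527272) was at 4.51, 4.88, 4.75 and 4.88 on NAC replicates 1 to 4, and at 4.94, 4.92 and 5.15 on vehicle replicates 1, 2 and 4. The groups did not overlap, although NAC replicates 2 and 4 came close to vehicle replicate 2. The means were 4.76 ± 0.18 with NAC (SD, n = 4) and 5.00 ± 0.13 with vehicle (SD, n = 3), a log2 difference of -0.25 (standard error 0.11, 95% interval -0.50 to 0.01), or 0.842-fold. Without NAC replicate 1, the lowest array, the difference was -0.165, and without vehicle replicate 4, the highest, it was -0.17. Ciita (chr16:10480014-10531064) encodes the related transactivator of class II genes. It was at 6.28, 6.02, 6.28 and 6.30 with NAC, and at 6.28, 6.28 and 6.37 with vehicle, and 4 of the 7 arrays held an identical value. The log2 difference of Ciita, -0.09 (standard error 0.08), was -0.025 without NAC replicate 2, the single low array. Nlrc5 and Ciita were also the 2 genes whose mean level fell under the 40th percentile of all genes, and a filter there left 8 of the 10.

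Cd74, on chromosome 18, encodes the invariant chain, which fills the groove of new class II molecules and guides them to the endosome. It was at 9.33, 9.53, 9.31 and 9.37 on NAC replicates 1 to 4, and at 9.45, 9.46 and 9.68 on vehicle replicates 1, 2 and 4. Vehicle replicate 4 was the high array, and NAC replicate 2 was above the other vehicle arrays. The means were 9.38 ± 0.10 with NAC (SD, n = 4) and 9.53 ± 0.13 with vehicle (SD, n = 3), and the log2 difference of -0.15 (standard error 0.08, 95% interval -0.33 to 0.04) was -0.07 without vehicle replicate 4. The class II chains H2-Aa, H2-Ab1 and H2-Eb1, whose products bind the invariant chain, were highest on the same array, while H2-Eb2 and H2-Oa were highest on NAC replicate 1. H2-Aa was at 9.43 to 9.48 with NAC, and at 9.48, 9.46 and 9.70 with vehicle. H2-Ab1 was at 9.18 to 9.46 with NAC, and at 9.26, 9.35 and 9.58 with vehicle. H2-Eb1 was at 9.08 to 9.30 with NAC, and at 9.02, 9.22 and 9.43 with vehicle, where vehicle replicate 1 was the lowest of all arrays. Their log2 differences were -0.08, -0.07 and -0.04 (standard errors 0.06, 0.10 and 0.10), and each group's range overlapped with the other's.

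Psmb10 (chr8:105935728-105938392) encodes the third inducible catalytic subunit, which replaces the Psmb7 product. It was at 8.35, 8.35, 8.18 and 8.30 with NAC, and at 8.44, 8.30 and 8.44 with vehicle. Vehicle replicates 1 and 4 were above every NAC array, but vehicle replicate 2 was below 3 of the 4 NAC arrays. The log2 difference of Psmb10 was -0.10 (standard error 0.06, 95% interval -0.24 to 0.04), against -0.02 for Psmb8 and 0.00 for Psmb9, and it was -0.06 without NAC replicate 3. The intervals of the 3 inducible subunits overlapped. The constitutive subunits that they replace had small differences of both signs. Psmb5 had a log2 difference of -0.015 (standard error 0.08), Psmb6 of 0.05 (standard error 0.04) and Psmb7 of 0.04 (standard error 0.03). Psmb7 was at 9.93 to 9.96 with NAC and at 9.89 to 9.93 with vehicle. Pomp, which helps to assemble new proteasomes, had 0.01 (standard error 0.05). Psme1 and Psme2, which form the interferon-inducible PA28 cap, had -0.03 (standard error 0.03) and -0.08 (standard error 0.09).

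**Figure D3:**
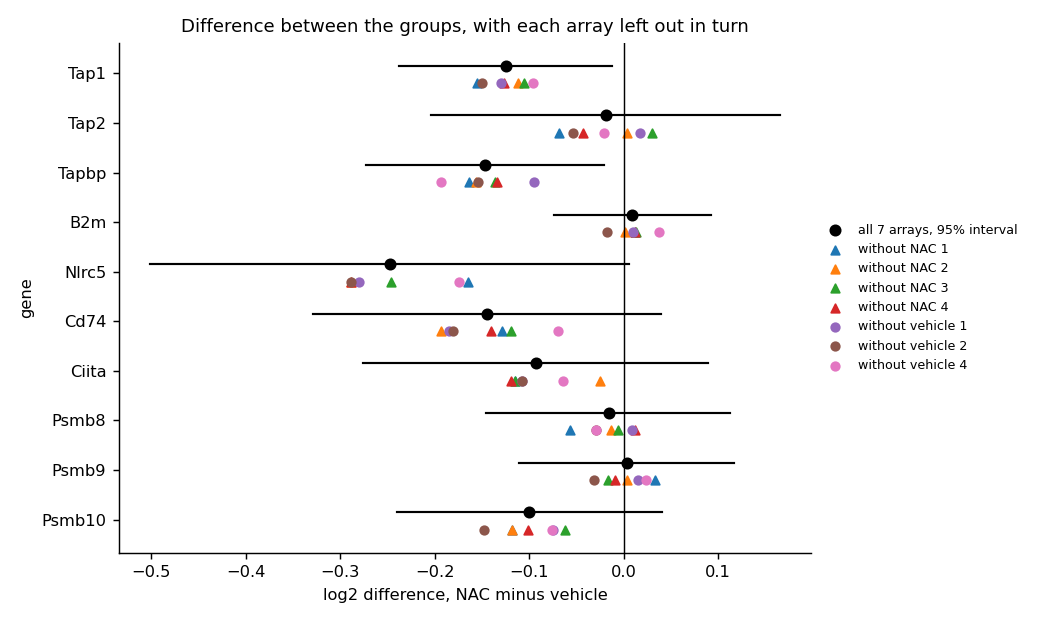
Log2 difference, NAC minus vehicle (x axis), of each gene (y axis) over all 7 arrays (black, with the 95% interval) and with each array left out in turn (coloured, triangles for NAC arrays and circles for vehicle arrays). Tap1, Tapbp, Nlrc5, Cd74, Ciita and Psmb10 stay below 0 whichever array is left out, and Tap2, B2m, Psmb8 and Psmb9 cross 0.

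Across the arrays, the 10 genes did not move as a block. Over the 45 pairs of genes, the correlation across the 7 arrays was above 0 in 32, with a median r of 0.26. After the mean of each group was taken away, it was above 0 in 24 pairs, with a median r of 0.10. These values describe 7 points that share treatment and array, and a few arrays carried much of the pattern. Vehicle replicate 4 was the highest or tied highest array for 5 of the 10 genes (Tap1, Nlrc5, Cd74, Ciita and B2m), as it was for 12.1% of all genes. NAC replicate 3 was the lowest for 4 of them (Tap1, Tap2, Cd74 and Psmb10), as it was for 16.2% of all genes. The mean deviation of the 10 genes was -0.025, -0.03, -0.07 and -0.02 on NAC replicates 1 to 4, and 0.06, -0.01 and 0.09 on vehicle replicates 1, 2 and 4. The groups did not overlap in this mean, but they did in the median deviation of the 10 genes, which was 0.00 on NAC replicate 1 and on vehicle replicate 2, with NAC replicate 1 the higher by a narrow margin. Vehicle replicate 2 was nearer to NAC replicates 1, 2 and 4 than to either other vehicle array in both. In the median it was nearer to the other vehicle arrays than to NAC replicate 3. The median log2 difference was -0.07 without vehicle replicate 4 and -0.08 without NAC replicate 3, the array with transcripts of other organs.

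**Figure D4:**
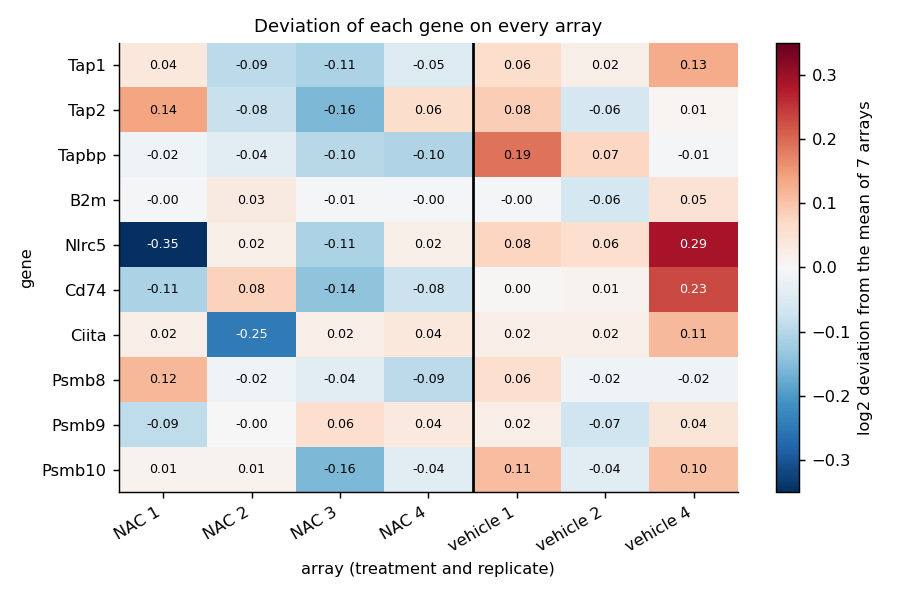
Log2 deviation of each gene (rows) from its mean over the 7 arrays, by array (columns, NAC left of the black line and vehicle right of it), with red above and blue below the mean. The largest deviations are Nlrc5 on NAC replicate 1 (-0.35) and vehicle replicate 4 (0.29), Ciita on NAC replicate 2 (-0.25) and Cd74 on vehicle replicate 4 (0.23).

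The other genes of the same pathways were taken from lists. Of 20 listed class I chains and loading genes, 12 were measured by a probe set that names them alone, and H2-K1 and H2-D1 were not analysed here. Of the 12, 9 had a lower and 3 a higher mean with NAC, with a median log2 difference of -0.025, and 0 passed in either direction. The lowest was the class I gene H2-T24 at -0.17 (standard error 0.14), further from 0 than 9 of the 10 genes. The chaperones calreticulin (Calr, 0.01, standard error 0.06) and calnexin (Canx, 0.00, standard error 0.03) and the disulfide isomerase Pdia3 (-0.08, standard error 0.10) assist the folding of heavy chains. Erap1, which trims peptides in the endoplasmic reticulum, was at 8.76, 8.75, 8.61 and 8.68 with NAC, and at 8.76, 8.78 and 8.78 with vehicle. Its groups did not overlap by a narrow margin. Of 11 class II presentation genes measured, 7 had a lower and 4 a higher mean, with a median of -0.03, and 0 passed. That median was 0.00 when vehicle replicate 4 was left out. H2-DMa, a subunit of the peptide exchange factor of class II, had -0.03 (standard error 0.03), and Ctss, the protease that degrades the invariant chain, had -0.07 (standard error 0.09). Of the 7 constitutive and cap genes of the proteasome, 4 had a lower and 3 a higher mean, with a median of -0.015, and 0 passed.

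Among 20 measured regulators of MHC genes, 15 had a lower and 5 a higher mean with NAC, with a median log2 difference of -0.04, and 0 passed. Nfyb, a subunit of the CCAAT-binding factor NF-Y that acts on MHC promoters, was at 7.86, 7.96, 7.76 and 7.75 with NAC, and at 7.980, 7.969 and 7.998 with vehicle. All its NAC arrays were below its vehicle arrays, with a log2 difference of -0.15 (standard error 0.06). The other NF-Y subunits had unlike signs, with Nfya at -0.22 (standard error 0.15) and Nfyc at 0.13 (standard error 0.11), and the interferon gamma receptor chain Ifngr1 was at -0.22 (standard error 0.19). Irf1, which activates class I and immunoproteasome genes, had -0.03 (standard error 0.08), and Rfx5, a subunit of the factor that binds the X box of MHC promoters, had -0.03 (standard error 0.05). For comparison, a list of 25 measured interferon-induced antiviral genes had 23 lower and 2 higher means, with a median of -0.25. Without vehicle replicate 4 that median was -0.16. Usp18 of that list, which removes ISG15 from proteins, was at 7.52 to 7.90 with NAC and at 8.11 to 8.39 with vehicle, a log2 difference of -0.59 (standard error 0.11). The list was highest or tied highest on vehicle replicate 4 in 15 of 25 genes, and whether its difference exceeds that of the 10 genes was not tested.

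Markers of immune cells are given beside these values, since dendritic cells, macrophages and lymphocytes express class II and immunoproteasome genes. Of 9 dendritic cell genes, 5 had a lower and 4 a higher mean with NAC, with a median log2 difference of -0.01. The median was 0.06 without vehicle replicate 4 (3 lower, 6 higher) and -0.06 without vehicle replicate 1 (8 lower, 1 higher). The lowest of that list were Itgax and Clec9a. Itgax was at 5.86 to 6.08 with NAC and at 6.03 to 6.27 with vehicle, a difference of -0.20 (standard error 0.08), and Clec9a was at 5.16 to 5.32 with NAC and at 5.37 to 5.56 with vehicle, a difference of -0.21 (standard error 0.06). At the other end, Ccr7 had a difference of 0.07 (standard error 0.08) and Xcr1 one of 0.04 (standard error 0.06). Macrophage genes had the opposite sign, with 9 of 10 higher and a median of 0.12, among them the complement gene C1qa at 0.15 (standard error 0.10) and the receptor gene Adgre1 at 0.23 (standard error 0.28). That median was 0.05 without NAC replicate 1, which was the highest array for 5 of the 10. Adgre1 was at 7.91 on that array, against 6.72 to 6.95 on the other NAC arrays and 6.77 to 6.95 with vehicle. Of 12 T and NK cell genes, 9 had a lower mean, with a median of -0.02, and 5 were highest on vehicle replicate 4, as was Cd74. That median was -0.005, with 6 of 12 lower, when vehicle replicate 4 was left out. The cytotoxic granule gene Nkg7 was at 6.92 on that array, against 6.28 to 6.59 with NAC and 6.68 and 6.38 on the other vehicle arrays. Its difference was -0.17 (standard error 0.14), and that of the granule gene Gzmb was -0.19 (standard error 0.08). The granule genes Gzma and Prf1 had the opposite sign, at 0.095 (standard error 0.09) and 0.02 (standard error 0.07). Cd3e, a chain of the T cell receptor complex, had a difference of -0.05 (standard error 0.05). Of 7 B and plasma cell genes measured, the 5 with a higher mean were B cell genes, and the 2 with a lower one were the plasma cell genes Jchain and Mzb1. The 5 B cell genes had low mean levels, from percentile 7.8 to 37.2 of all genes. The median of the 7 was 0.09. It lay between 0.02 (without NAC replicate 4) and 0.11 (without vehicle replicate 1) with any array left out, and was 0.03 without NAC replicate 1. Jchain was at 5.81, 5.45, 5.90 and 5.93 with NAC, and at 5.96, 6.35 and 6.44 with vehicle, without overlap. Its difference was -0.48 (standard error 0.16), and Mzb1 had one of -0.15 (standard error 0.09). The B cell gene Pax5 was without overlap the other way, at 6.17 to 6.20 with NAC and 6.04 to 6.14 with vehicle. Its difference was 0.09 (standard error 0.03). Of all genes, 2.18% lay lower with NAC without overlap and 1.29% higher. Luminal epithelial genes had a median of -0.01 over 6 genes, with Krt8 at 11.96 to 12.12 with NAC and at 11.96 to 12.05 with vehicle, and basal genes one of 0.08 over 5, with Krt5 at 8.37 to 9.40 with NAC and at 8.48 to 9.14 with vehicle. The basal median was -0.065 without NAC replicate 1 and -0.02 without vehicle replicate 2, and the luminal one lay between -0.01 and 0.02 with any array left out. Itgax, Clec9a, Xcr1, Nkg7, Gzma, Gzmb, Prf1, Pax5, Jchain and Mzb1 had mean levels under the 40th percentile of all genes. Their differences are those of dim genes. No gene of these lists passed limma's threshold, and the part of these cells in the values of the 10 genes was not tested.

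**Figure D5:**
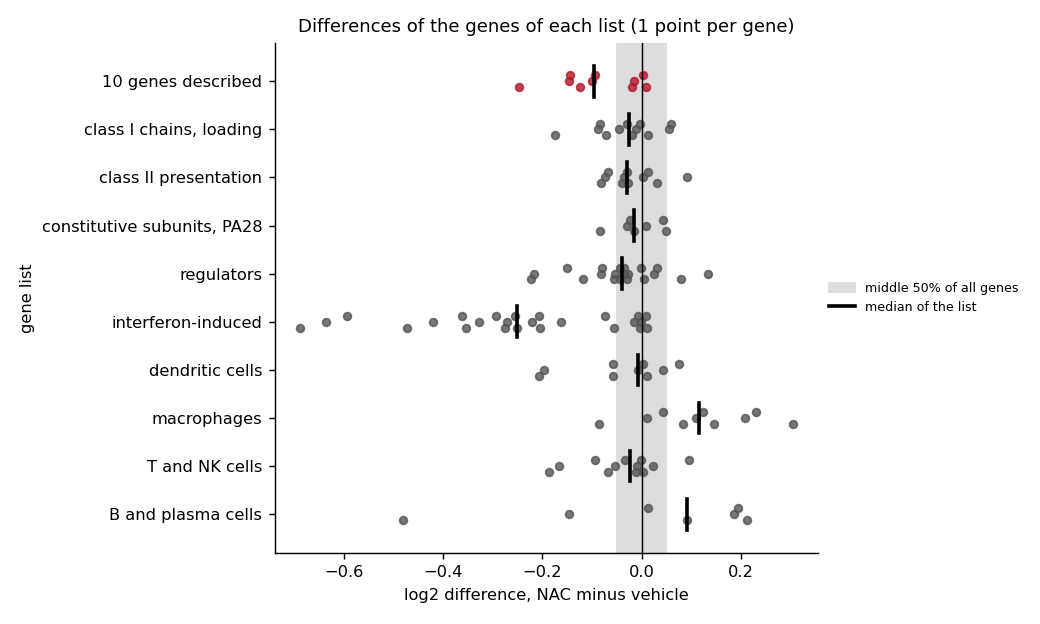
Log2 difference, NAC minus vehicle (x axis), of every measured gene of each list (y axis), with 1 point per gene, a black bar for the list's median and a grey band for the middle 50% of all genes. The 10 genes (red) have a median of -0.10, against -0.025 for other class I genes, -0.03 for class II genes and -0.25 for interferon-induced genes.

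The genes whose pattern over the 7 arrays was most like the mean of the 10 were looked for among 6545 others with an SD of at least 0.1. The highest Pearson correlations were those of Gnpnat1, an enzyme of UDP-N-acetylglucosamine synthesis (0.97), the cytotoxic granule protease Gzmb (0.94), Lrrc51 (0.94), Adarb2 (0.93) and the small nucleolar RNA Snora7a (0.93). Gzmb was at 6.38, 6.46, 6.22 and 6.46 with NAC, and at 6.57, 6.45 and 6.68 with vehicle. The lowest were those of Cd93, a receptor of endothelial and myeloid cells (-0.97), the membrane linker moesin, Msn (-0.96), the collagen chain Col6a3 (-0.96), the transferrin receptor Tfrc (-0.96) and Mir540 (-0.95). With the group means taken away, Stpg2 (0.98), Ms4a20 (0.96), Clec4b2 (0.94), Ccnj (0.93) and Catip (0.92) were the most alike, and Gstm6, Cd93, Col6a3, Tfrc and Scp2 the least (from -0.98 to -0.95). Cd93, Col6a3 and Tfrc were thus at the low end in both orders, and none of the most alike genes was shared. These are the extremes of 6545 values over 7 arrays and are given with no test.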

How the data were processed

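Prostate RNA of 4 NAC and 3 vehicle mice was measured on 1 array each. Per the study's methods, the authors' values are RMA summaries of perfect-match probes (median polish after quantile scaling), and these deposited log2 values were used as they are. The submitters' notes name affy, RMA and limma. The authors had removed another vehicle array at quality control. Of 20696 probe sets, the 18950 naming a single gene gave 18938 genes (probe set of highest mean per gene, 18922 symbols updated by Entrez identifier). NAC was compared with vehicle by limma 3.58.1 under R 4.3.3, with a two-sided moderated test, Benjamini-Hochberg adjustment over all genes and no covariates. Standard errors and 95% intervals come from that fit, whose script was tested on simulated data. The methods give no test of single genes. Precision is limited by there being 7 arrays.

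The 10 genes and all lists were chosen with earlier results of these data known. Named were the 10 genes, set genes of the pathway lists and any pathway gene at an unadjusted p under 0.05. A defining gene of most cell types was named too, as were the 5 genes at either end of each likeness order. Those orders needed an SD of at least 0.1 and left out predicted genes, Riken clones, immunoglobulin segments and olfactory or vomeronasal receptors. The interferon-induced list was kept out of the rule on p. In it, 11 genes were lower with NAC at an unadjusted p under 0.05, and of these only Usp18 is given. Tgm4, Sftpc, Usp18, Nkg7, Gzma, Prf1, Ccr7, Xcr1, Pax5, Jchain, Mzb1 and Crip1 fall outside these rules. H2-T24, Nfya, Nfyc, Ifngr1, H2-Eb2 and H2-Oa do so too. All were picked once their values had been seen. Promoters are from RefSeq (GRCm38.p6). The alternatives changed the variance prior, the array weights, the scaling (medians or quantiles), the filter on dim genes (mean below percentile 40), the choice of probe sets and the replicate block, or left out an array.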

Additional observations from a re-analysis of the deposited data

Results flagged for a closer look

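Among the 4 NAC arrays, 68 genes named in the text, which leave out Gzma, Prf1 and Pax5, were examined. A single array far from the others was found in 8. Chance would give about 1 in 20 for genes chosen without their values in view. Sftpc, Mzb1 and the genes of the likeness orders were picked by their values, so the 8 cannot be set against that rate. Where the other arrays are nearly tied, a small gap is enough. B2m on NAC replicate 2 was at 13.44, above 13.41 on each of the others, and Ciita on that array was at 6.02, below 6.28 to 6.30 on the others. The constitutive subunit Psmb5 on NAC replicate 2 was at 12.19, above 11.94 to 11.96 on the others. On NAC replicate 3, the surfactant gene Sftpc was at 10.51, above 5.13 to 5.26 on the others, Gstm6 was at 4.65, above 4.35 to 4.40, and Adarb2 was at 6.90, below 7.10 to 7.13. On NAC replicate 4, Nfya was at 8.53, below 8.97 to 8.99 on the others, and Mzb1 was at 6.44, below 6.49 on each of the others, which held an identical value.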

How the results depend on the processing

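The count of genes past the threshold was 0 under every alternative that keeps all arrays, and from 0 to 1 with an array left out. The 1 gene, Crip1, passed without NAC replicate 4 and is none of the 10. The median log2 difference of the 10 genes lay between -0.13 and -0.07 with an array left out and between -0.10 and -0.06 otherwise. The value of -0.06 is that after dim genes were removed, which leaves 8 of the 10. The number with a lower mean was 6 without vehicle replicate 1 and 10 without vehicle replicate 2, 7 after quantile normalization again, and 6 of 8 without dim genes. Tap1, Tapbp, Nlrc5, Cd74, Ciita and Psmb10 kept a negative difference in every alternative run that measured them, while the sign of Tap2, B2m, Psmb8 and Psmb9 turned in 5, 1, 3 and 5 alternatives. Deviations from the group means correlated across genes by 0.21, 0.29 and -0.07 between NAC and vehicle arrays numbered 1, 2 and 4. NAC replicates 1 and 2 each correlated best with the vehicle array of their own number, and NAC replicate 4 with vehicle replicate 2 (0.21). Deviations within a group sum to 0, which ties these correlations to each other. They cannot show whether the numbers pair the mice. With the replicate number as a block, 0 genes passed and the median was -0.08, with 8 genes lower, as without NAC replicate 3, which has no vehicle array of its number. Genes lower with NAC at an unadjusted p under 0.05 numbered 479 in all 7 arrays, 803 without NAC replicate 2 and 295 without vehicle replicate 1.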
